A study of Mus musculus with 9 samples.

Results

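Transcripts of the receptor tyrosine kinase ROS1, of the phosphatase and docking receptor that act near it, and of targets and feedback inhibitors of the ERK kinase cascade were followed along the mouse epididymis. The 10 genes were taken by name from a list, 10 of 24059 gene symbols measured, and comprised Ros1, Ovch2, Ptpn6, Sirpa, Etv1, Etv4, Etv5, Dusp6, Spry2 and Spry4. Each had a row of counts, and each passed the filter on low counts that left 14168 genes for testing. The tissue was whole caput, corpus or cauda epididymis of wild type C57BL/6J mice aged 9 months, with 3 libraries per segment and no other genotype or treatment. Libraries held 2600061 to 6076479 gene counts. Levels are given as CPM, read counts scaled to a common library size with TMM factors, in which 1 count stood for 0.155 to 0.374. Nothing in the labels ties the 3 libraries of a segment to 3 different mice, and p-values here cover only the spread seen between libraries, which may be technical. The labels also do not say where the caput was cut, so how much initial segment each caput library held is unknown.

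The initial segment is the most proximal epithelium of the epididymis, where the duct receives fluid and sperm from the testis. In mice, the testis protein NELL2 travels with that fluid and activates ROS1 on the epithelial cells there, and males without Ros1 lack a differentiated initial segment and are infertile. The signal passes through the ERK cascade (RAS, RAF, MEK and ERK kinases in sequence) to transcription factors such as the PEA3 group of ETS proteins, and is limited by phosphatases and by Sprouty and DUSP proteins that ERK itself induces. OVCH2 is a secreted protease-like protein whose production in the mouse initial segment depends on ROS1 and which is needed to process a sperm surface protein.

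The sequence just upstream of a RefSeq transcription start is shown for 5 genes that stand for the different profiles found along the duct. Ros1, Ovch2 and Etv5 had their transcripts almost entirely in caput, Dusp6 had a partial caput excess, and Ptpn6 peaked in corpus. Each run holds the 250 bases before that start on the coding strand (build GRCm38.p6), namely chr10:52195245-52195494 (minus strand) for Ros1, chr7:107801180-107801429 (minus) for Ovch2, chr16:22439571-22439820 (minus) for Etv5, chr10:99262981-99263230 (plus) for Dusp6 and chr6:124738710-124738959 (minus) for Ptpn6. For Ovch2, Etv5 and Ptpn6 that start lies inside the gene as GENCODE annotates it, so part of the run is within the annotated gene. In Etv5 this is most of the run, as the annotated gene extends to 22439719, and in Ovch2 and Ptpn6 the end nearest the start. Capitals mark AGGAAG, a core sequence of PEA3-type binding sites, read on either strand.
Ros1: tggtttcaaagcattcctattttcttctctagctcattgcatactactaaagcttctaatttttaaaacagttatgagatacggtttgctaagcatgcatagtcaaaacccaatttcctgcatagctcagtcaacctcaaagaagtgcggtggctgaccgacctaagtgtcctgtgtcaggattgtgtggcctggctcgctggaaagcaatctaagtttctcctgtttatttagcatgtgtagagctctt
Ovch2: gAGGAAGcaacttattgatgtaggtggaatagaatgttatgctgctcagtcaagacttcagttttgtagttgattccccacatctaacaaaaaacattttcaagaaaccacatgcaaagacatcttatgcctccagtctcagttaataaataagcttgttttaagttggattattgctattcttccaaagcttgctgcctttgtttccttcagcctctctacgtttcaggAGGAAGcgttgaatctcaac
Etv5: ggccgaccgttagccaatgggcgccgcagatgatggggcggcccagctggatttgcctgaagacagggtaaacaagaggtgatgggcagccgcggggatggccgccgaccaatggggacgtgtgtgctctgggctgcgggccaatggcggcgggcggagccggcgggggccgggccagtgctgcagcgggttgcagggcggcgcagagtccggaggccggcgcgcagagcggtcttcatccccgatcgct
Dusp6: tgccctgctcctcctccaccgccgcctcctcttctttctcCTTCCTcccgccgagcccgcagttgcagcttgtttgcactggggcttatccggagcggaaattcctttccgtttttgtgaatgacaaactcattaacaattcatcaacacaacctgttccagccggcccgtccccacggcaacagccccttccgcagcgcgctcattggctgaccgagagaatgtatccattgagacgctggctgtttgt
Ptpn6: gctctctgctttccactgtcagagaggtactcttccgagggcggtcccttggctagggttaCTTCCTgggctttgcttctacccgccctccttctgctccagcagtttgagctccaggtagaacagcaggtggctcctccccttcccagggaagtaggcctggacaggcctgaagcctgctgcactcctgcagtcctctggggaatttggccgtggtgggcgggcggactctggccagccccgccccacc
RefSeq windows were found for 7 of the 10 genes, and AGGAAG occurred in 4 of them, against 29.5% of the 32851 windows of this length in the table. It began at base -189 before the start in Ptpn6, at -249 and -20 in Ovch2 (the latter inside the GENCODE gene), at -8 in Etv1 and at -210 in Dusp6. The whole Etv1 window (38779832 to 38780081, plus strand) lay inside the GENCODE gene, which starts at 38779380. The ETS core CCGGAA occurred in 0 of the 7 windows and in 12% of all windows. The AP-1 sequence TGANTCA occurred in 0 of the 7 and in 6.75% of all, both strands being read. The caput-high Ros1 and Etv5 had none of the 3 sequences in these windows, nor did Spry2. AGGAAG was present in the caput-high Ovch2, Etv1 and Dusp6 and in Ptpn6, which had its highest level elsewhere. A link between these sequences and the levels was not tested.

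Ordered by length-scaled level (the authors' RPKM, reads scaled to transcript length and library size), the genes stood in a different order in each segment. In caput the mean RPKM was 353 ± 26.3 (SD, n = 3 libraries, as throughout) for Ovch2, 71.1 ± 2.28 for Etv5, 39.5 ± 2.17 for Dusp6, 24.6 ± 5.32 for Etv4 and 23.6 ± 3.83 for Ros1. Below these stood Spry2 at 10.6 ± 1.14, Ptpn6 at 5.86 ± 1.03, Etv1 at 5.7 ± 0.781, Sirpa at 4.3 ± 0.181 and Spry4 at 1.12 ± 0.161 RPKM. Neighbours in this order overlapped for Etv4 with Ros1 and for Ptpn6 with Etv1, and were apart elsewhere. In corpus the order opened with Ptpn6 (11.8 ± 1.62 RPKM) and Spry2 (11.7 ± 0.589), which overlapped, followed by Dusp6 (8.06 ± 1.04), Sirpa (2.98 ± 0.327) and Etv5 (1.86 ± 0.169). Ovch2 (0.785 ± 0.289), Etv1 (0.561 ± 0.118), Spry4 (0.34 ± 0.228), Ros1 (0.297 ± 0.0564) and Etv4 (0.29 ± 0.11) closed the corpus order, each overlapping its neighbour. In cauda Spry2 (10.3 ± 1.63 RPKM), Dusp6 (7.42 ± 0.696) and Ptpn6 (5.82 ± 0.0277) stood apart at the top, Sirpa (3.57 ± 0.552) and Etv5 (3.55 ± 0.522) overlapped, and the other 5 lay between 0.278 (Ros1) and 1.03 (Etv1). Ptpn6, Spry2 and Dusp6 therefore headed the list in corpus and cauda, with Spry4 near its end, and Ovch2, Etv5 and Dusp6 headed it in caput.

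**Figure D1:**
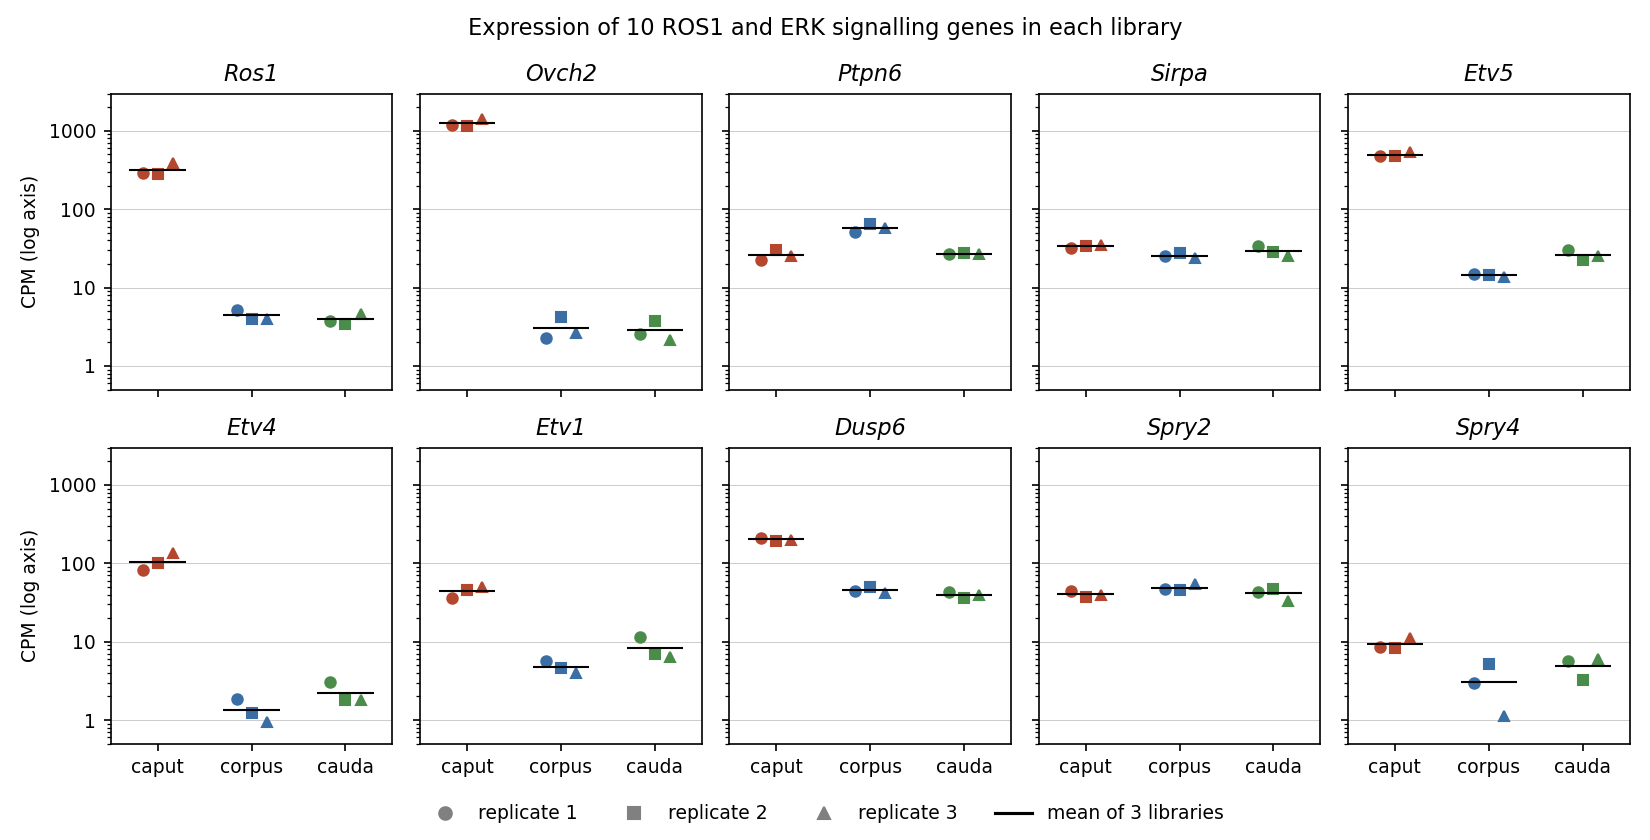
CPM of each gene in each of the 9 libraries on a common log axis, with segments on the x axis, a symbol for each replicate number and a bar at the mean of 3 libraries. Ros1, Ovch2, Etv5, Etv4, Etv1 and Dusp6 sit far higher in caput than in corpus and cauda, Ptpn6 peaks in corpus, Spry4 is scarce throughout (1.13 to 11.3 CPM), and Sirpa and Spry2 stay within a narrow range.

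Ros1 (chromosome 10, 52045721 to 52195244, minus strand, mm10), which encodes the receptor, was measured at 286, 281 and 393 CPM in caput replicates 1 to 3. Corpus libraries held 5.24, 4.03 and 3.95 CPM, and cauda libraries 3.76, 3.4 and 4.64. Every caput library was far above every corpus and cauda library, and the corpus and cauda libraries overlapped. Ros1 was 75-fold lower in corpus than in caput (log2 change -6.23, SE 0.18, edgeR quasi-likelihood adjusted p = 5.83e-12) and 80.3-fold lower in cauda (-6.33, SE 0.18, edgeR adjusted p = 4.11e-12). Between corpus and cauda the log2 difference was -0.1 (95% interval -0.73 to 0.53, edgeR adjusted p = 0.82). The low distal level was not 0, at 61 reads in total in corpus and 67 in cauda. In such bulk tissue, fewer expressing cells and less RNA per cell cannot be told apart. No 36-base window of the Ros1 transcripts, the length of the reads, occurs in another annotated gene.

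Ovch2 (chromosome 7, 107781544 to 107801208, minus strand) had the widest caput excess of the 10 genes. Caput libraries held 1190, 1140 and 1400 CPM, corpus libraries 2.25, 4.19 and 2.64, and cauda libraries 2.56, 3.8 and 2.15. Caput was again clear of the other segments, which overlapped each other. The transcript was 381-fold lower in corpus (log2 change -8.57, SE 0.17, edgeR adjusted p = 2.61e-13) and 441-fold lower in cauda (-8.78, SE 0.17, edgeR adjusted p = 1.78e-13). Its place was 70th lowest of 14168 tested genes in log2 change from caput to corpus, with Etv4 at place 153, Ros1 at 170 and Etv5 at 241. The change between corpus and cauda did not pass the test (log2 -0.21, 95% interval -0.86 to 0.44, edgeR adjusted p = 0.615).

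Ptpn6 (chromosome 6, 124720707 to 124738714, minus strand) encodes SHP-1, a cytoplasmic tyrosine phosphatase that restrains receptor signals and is known in the mouse caput as a negative regulator of ROS1. It ran opposite to its kinase in corpus. Caput libraries held 22.3, 30.6 and 25.1 CPM, corpus libraries 50.9, 64.5 and 57.1, and cauda libraries 27, 27.6 and 26.7. All corpus libraries lay above all others, and the cauda libraries fell within the caput range. Ptpn6 rose 2.23-fold from caput to corpus (log2 1.16, SE 0.13, edgeR adjusted p = 3.73e-06) and fell from corpus to cauda by 1.1 on the log2 scale (SE 0.12, edgeR adjusted p = 7.13e-06). Cauda and caput differed by 0.06 on the log2 scale (95% interval -0.23 to 0.35, edgeR adjusted p = 0.729). The antisense gene Gm20531 shares 195 exon bases with Ptpn6 and 5.57% of its 36-base windows, and since the strand setting of the counting is not given, reads there cannot be assigned to either gene. The ratio of Ros1 to Ptpn6 RPKM was 4.21, 3.02 and 5.14 in the caput libraries, 0.0338, 0.0205 and 0.0228 in corpus and 0.0457, 0.0404 and 0.0571 in cauda. Kinase transcript exceeded phosphatase transcript per unit length in caput, and the reverse held in both distal segments. Cauda ratios all lay above corpus ratios.

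Sirpa (chromosome 2, 129592835 to 129632228, plus strand) encodes a membrane receptor for CD47 whose cytoplasmic tail docks SHP-1 and SHP-2. Its levels were 31.7, 34.3 and 34.6 CPM in caput, 25.5, 27.3 and 23.9 in corpus, and 34.2, 28.4 and 25 in cauda. The corpus libraries were all below the caput libraries, and the cauda libraries overlapped both. Sirpa was 1.31-fold lower in corpus than in caput (log2 -0.39, SE 0.13, edgeR adjusted p = 0.0222). That call was lost with DESeq2 (adjusted p = 0.0572). It was also lost in edgeR when 1 of 3 libraries was left out, namely the second caput (adjusted p = 0.06), the third caput (0.0651) or the third corpus library (0.0737). Cauda passed the test against neither other segment, with log2 differences of 0.19 from corpus (edgeR adjusted p = 0.265) and -0.2 from caput (edgeR adjusted p = 0.201). Cd47, the gene of its ligand, had 51.2 ± 4.88 CPM in caput and was lower distally, at 33.8 ± 3.68 in corpus and 35.1 ± 2.63 in cauda, and Ptpn11 (SHP-2) was at 150 ± 6.11, 128 ± 15.3 and 177 ± 24.8 CPM, lower in corpus than in cauda.

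Ptpn6 and Sirpa are also genes of blood cells, so leukocyte markers were read in the same libraries. The summed CPM of 12 leukocyte and lymphocyte markers ranged from 63.6 to 71.6 over the caput libraries, 32.6 to 48.4 in corpus and 68.1 to 80.8 in cauda. The pan-leukocyte marker Ptprc had mean CPM values of 10.8 (caput), 7.85 (corpus) and 11.6 (cauda). The corpus libraries had the lowest sums. Of the 5 tested markers of this list, 2 (Cd3e and Laptm5) were lower in corpus than in caput and 0 higher. Among all tested genes 28.2% were lower and 29.5% higher. Laptm5 went from 34.9 to 18.7 CPM, Ptprc did not pass the test (edgeR adjusted p = 0.128), and Coro1a was at 6.56 and 6.55 CPM. The rest of the 12 markers were too low to test. The B cell marker Ms4a1 had no count in any caput library. The 16 macrophage and dendritic cell markers had sums of 535 to 580 in caput, 400 to 617 in corpus and 621 to 779 in cauda. Of these markers, 6 were lower and 1 higher in corpus than in caput, beside 28.2% lower and 29.5% higher among all tested genes. Markers of clear cells, the acid-secreting epithelial cells, had their highest sum in corpus (538 to 558 CPM, against 360 to 380 in caput and 362 to 387 in cauda), and Car2 carried that rise (343 CPM in corpus, against 43 in caput and 76.5 in cauda). Of the other clear cell markers, Atp6v1g3 was higher in corpus than in caput and Atp6v0d2 and Foxi1 were lower. The part of blood cells in the Ptpn6 and Sirpa levels, and of clear cells in the Ptpn6 level, was not tested.

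**Figure D2:**
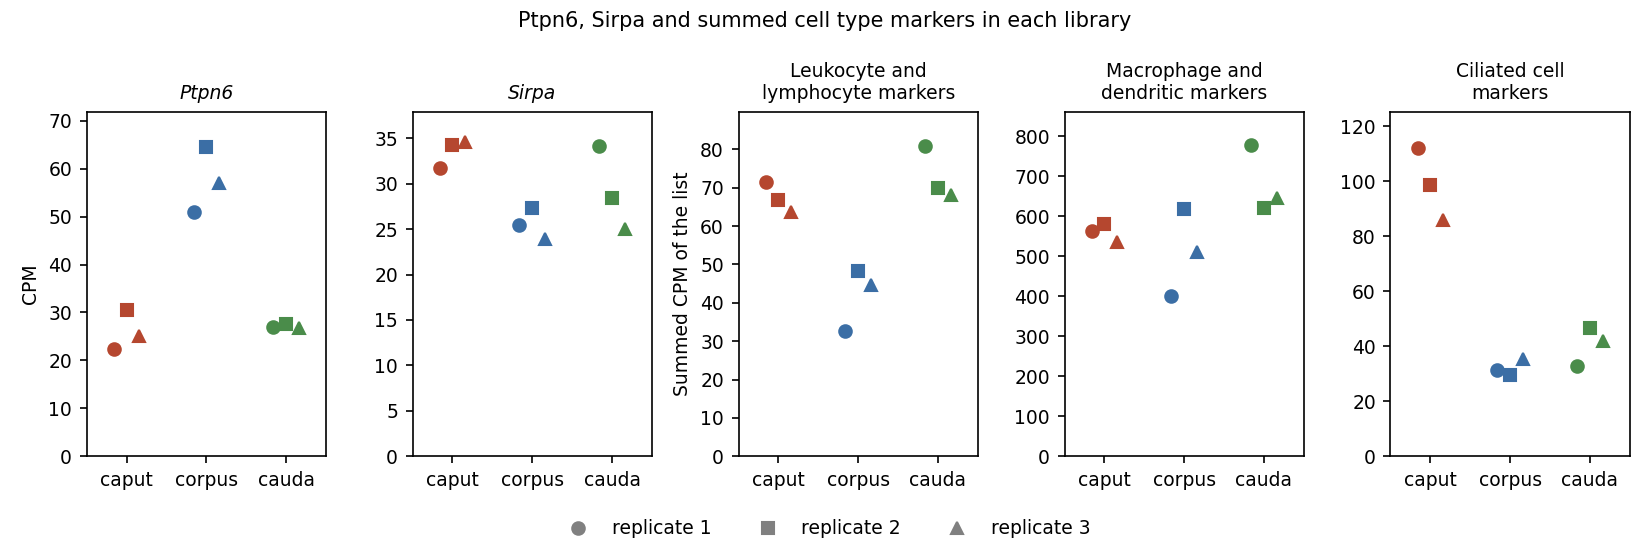
CPM of Ptpn6 and Sirpa and summed CPM of leukocyte and lymphocyte, macrophage and dendritic, and ciliated cell markers in each library, with segments on the x axis, a symbol for each replicate number and every axis starting at 0. Ptpn6 peaks in the corpus libraries (50.9 to 64.5 CPM), in which the leukocyte and lymphocyte markers have their lowest sums (32.6 to 48.4 CPM). The macrophage and dendritic sums in corpus (400 to 617 CPM) overlap those in caput (535 to 580 CPM).

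Etv5, Etv4 and Etv1 encode the PEA3 transcription factors, ETS proteins induced by ERK signalling in many epithelia. Etv5 (chromosome 16, 22381309 to 22439719, minus strand) was the most abundant and was measured at 477, 480 and 534 CPM in caput, 15, 14.3 and 13.6 in corpus, and 30.1, 22.8 and 25 in cauda. Its 3 segments did not overlap. Etv5 was 35-fold lower in corpus than in caput (log2 -5.13, SE 0.11, edgeR adjusted p = 4.81e-13) and rose again 1.84-fold from corpus to cauda (log2 0.88, SE 0.12, edgeR adjusted p = 9.24e-05), remaining 19.1-fold below caput (edgeR adjusted p = 1.03e-12). Of its 36-base windows, 28.7% also occur in the gene Gm4798, which has no row of its own here, so part of the Etv5 count is uncertain.

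Etv4 (chromosome 11, 101769742 to 101785371, minus strand) was the most caput-restricted of the group. It stood at 82.4, 100 and 134 CPM in caput, 1.87, 1.24 and 0.942 in corpus, and 3.07, 1.8 and 1.82 in cauda. The caput libraries spread by 24.7% (coefficient of variation), the widest caput spread of the 10 genes and above the 11.3% median of all tested genes. Etv4 was 82.9-fold lower in corpus (log2 -6.37, SE 0.27, edgeR adjusted p = 2.63e-10) and 46.6-fold lower in cauda (-5.54, SE 0.24, edgeR adjusted p = 3.18e-10). The rise from corpus to cauda, 0.83 on the log2 scale, did not pass the test (95% interval -0.2 to 1.86, edgeR adjusted p = 0.189) and rests on 18 reads in corpus and 38 in cauda.

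Etv1 (chromosome 12, 38779380 to 38870484, plus strand) changed least among the 3 factors. Its levels were 36.5, 46.2 and 49.6 CPM in caput, 5.62, 4.65 and 3.95 in corpus, and 11.6, 7 and 6.46 in cauda. No library of a segment reached the range of another segment. It was 9.55-fold lower in corpus than in caput (log2 -3.26, SE 0.24, edgeR adjusted p = 6.34e-08) and 5.26-fold lower in cauda (-2.39, SE 0.21, edgeR adjusted p = 4.8e-07). The 1.82-fold rise from corpus to cauda (log2 0.86, SE 0.27, edgeR adjusted p = 0.0211) was lost without cauda replicate 1 (edgeR adjusted p = 0.105), corpus replicate 3 (0.0716) or corpus replicate 2 (0.0517). Of the Etv1 windows of 36 bases, 9.05% occur in the gene Gm5454, which has no row here.

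The make-up of the PEA3 group shifted along the duct while Etv5 remained its main member. Etv5 made up 70.3% ± 3.53 of the summed RPKM of the 3 genes in caput, 69% ± 3.94 in corpus and 70.3% ± 4.05 in cauda. Etv4 accounted for 20.9%, 24% and 27.4% in the caput libraries, 13.2%, 9.9% and 8.25% in corpus, and 11%, 9.18% and 8.81% in cauda. Etv1 accounted for 5.12% to 6.09% in caput, 19.2% to 22% in corpus and 17.3% to 23.1% in cauda. For Etv4 and Etv1 the caput shares lay clear of the corpus and cauda shares, which overlapped each other. These shares are a description, without a test, and those of Etv5 and Etv1 carry the uncertainty of their shared windows.

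**Figure D3:**
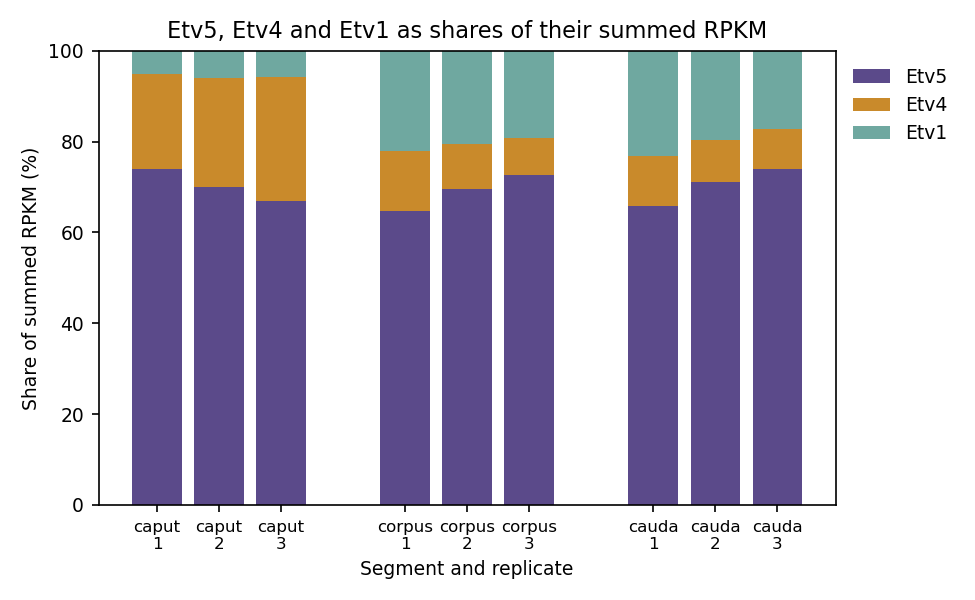
Etv5, Etv4 and Etv1 as percentages of their summed RPKM, stacked from 0 to 100%, for each of the 9 libraries by segment and replicate. Etv5 holds 64.8% to 74% in every library, and the Etv4 share is 20.9% to 27.4% in caput against 8.25% to 13.2% in corpus and cauda.

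Dusp6 (chromosome 10, 99263231 to 99267489, plus strand) encodes a cytoplasmic phosphatase that removes the activating phosphates of ERK and is itself induced by ERK. Caput libraries held 211, 193 and 201 CPM, corpus libraries 44.2, 49.6 and 41.8, and cauda libraries 43.6, 36.6 and 38.9. Caput lay clear of the other segments, which overlapped each other. Dusp6 was 4.44-fold lower in corpus (log2 -2.15, SE 0.09, edgeR adjusted p = 2.75e-10) and 5.07-fold lower in cauda (-2.34, SE 0.09, edgeR adjusted p = 1.25e-10). The ratio of Dusp6 to Etv5 RPKM was 0.514 to 0.604 in caput, 4.03 to 4.75 in corpus and 1.98 to 2.19 in cauda, with no overlap between segments. The inhibitor thus kept a far larger part of its caput level in the distal duct than the transcription factor did.

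The Sprouty genes encode membrane-bound inhibitors that block receptor tyrosine kinase signals upstream of ERK, and the 2 members differed from Dusp6 and from each other. Spry2 (chromosome 14, 105891947 to 105896819, minus strand) was at 44.6, 36.8 and 39.3 CPM in caput, 47.6, 45.3 and 54.6 in corpus, and 43.4, 47 and 33.5 in cauda. Its corpus libraries were just above the caput libraries, and cauda overlapped both. No comparison of Spry2 passed the test. The log2 difference from caput was 0.29 in corpus (95% interval 0 to 0.59, edgeR adjusted p = 0.0822) and 0.04 in cauda (95% interval -0.26 to 0.33, edgeR adjusted p = 0.838). The corpus difference passed when caput and corpus alone were fitted (edgeR adjusted p = 0.0392) and without cauda replicate 3 (0.0343).

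Spry4, on chromosome 18, was the scarcest of the 10 genes in caput. It stood at 8.44, 8.42 and 11.3 CPM in caput, 3, 5.12 and 1.13 in corpus, and 5.64, 3.2 and 5.97 in cauda. All caput libraries were above all others, and corpus and cauda overlapped. Spry4 was 2.95-fold lower in corpus than in caput (log2 -1.56, SE 0.41, edgeR adjusted p = 0.00512), and the log2 change was -2.38 without corpus replicate 2, which held 33 of its 47 corpus reads. The cauda difference from caput, -0.92 on the log2 scale, lay at the threshold (95% interval -1.73 to -0.12, edgeR adjusted p = 0.0515, and 0.0114 to 0.179 over the alternatives). The difference between corpus and cauda did not pass (log2 0.64, edgeR adjusted p = 0.247) but did without corpus replicate 2 (1.46, edgeR adjusted p = 0.0216). Spry1, another Sprouty gene that was not among the 10, stood at 104 ± 4.85 CPM in caput and fell to 29.2 ± 1.19 in corpus (log2 -1.83, SE 0.1, edgeR adjusted p = 2.98e-09) and 35.8 ± 3.92 in cauda.

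Over the 10 genes, 8 were lower in corpus than in caput at an edgeR adjusted p under 0.05, where 28.2% of all tested genes were lower, and 1 (Ptpn6) was higher, where 29.5% were. From caput to cauda 6 were lower (27.2% of all tested genes) and 0 higher (27.5%), the 6 being Ros1, Ovch2, Etv1, Etv4, Etv5 and Dusp6. From corpus to cauda 2 rose (Etv5 and Etv1, against 18.8% of all genes) and 1 fell (Ptpn6, against 20.4%), with 7 not past the test, so that 3 of 10 passed where 39.2% of all genes did. All 10 genes had caput and corpus libraries that did not overlap, as did 63.5% of all tested genes. Caput and cauda libraries were apart for 7 of the 10 (62.7% of all genes), and corpus and cauda libraries for 3 (50.1%). The median log2 change of the 10 was -2.7 from caput to corpus, -2.37 from caput to cauda and 0.05 from corpus to cauda, beside medians of 0, 0.01 and -0.01 over all tested genes. The comparisons with caput share the caput libraries, so their counts do not stand apart from each other, and the genes were picked as a pathway with its caput expression known.

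**Figure D4:**
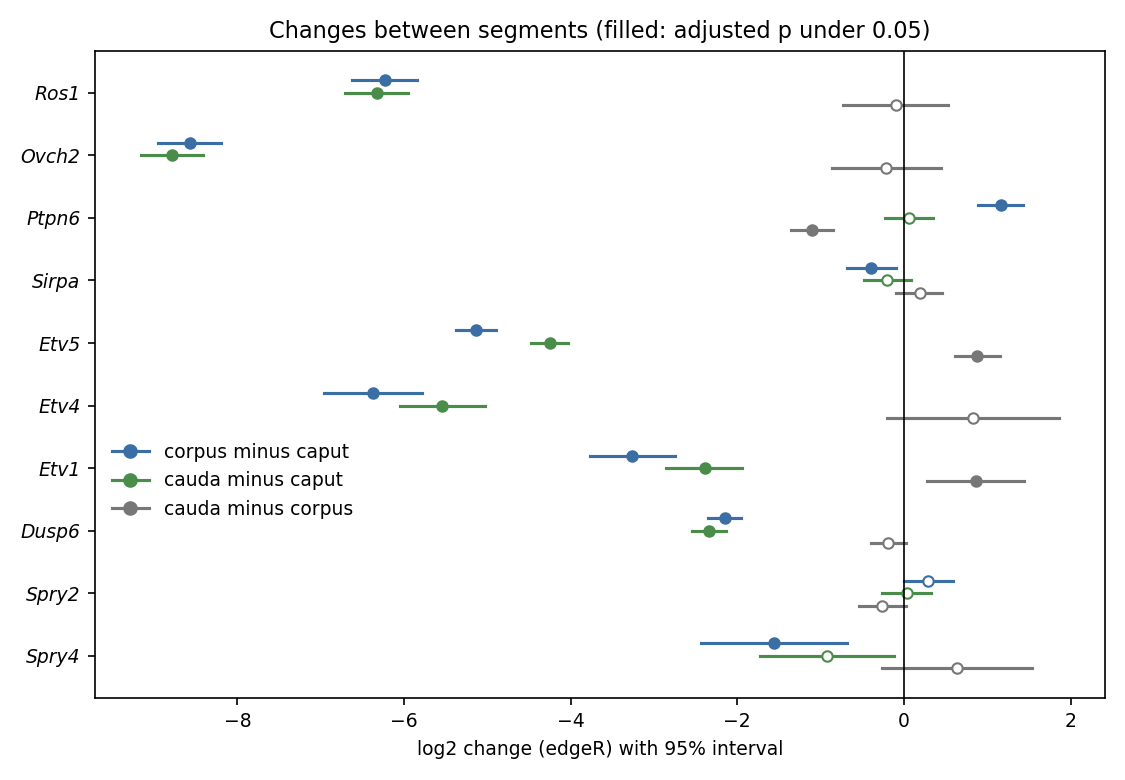
Log2 change of each gene in the 3 comparisons (x axis, edgeR) with 95% intervals, filled where the adjusted p was under 0.05. Ovch2, Etv4, Ros1 and Etv5 lie between -8.78 and -4.25 in both comparisons with caput, whereas Spry2 lies within 0.3 of 0 in every comparison.

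The caput libraries differed among themselves in a way that several of the genes shared. Caput replicate 3 held the highest CPM for 7 of the 10 genes (Ros1, Ovch2, Etv1, Etv4, Etv5, Spry4 and Sirpa), while it was the highest caput library for 34% of all tested genes. Dusp6 and Spry2 were highest in replicate 1 and Ptpn6 in replicate 2. Replicate 3 also had the highest sum over 6 initial segment genes, of which 5 were lower and 1 higher in corpus than in caput (13000 CPM, against 11800 in replicate 1 and 10600 in replicate 2) and the lowest sum over 10 markers of ciliated and efferent duct cells (85.8 CPM, against 112 and 98.6). Of those ciliated markers, 7 were lower in corpus than in caput, where 28.2% of all tested genes were, and 3 did not pass the test. Foxj1, the regulator of motile cilia, was at 28.2 CPM in caput and 0.291 in corpus. The 3 others were Rsph1 (13.4 CPM in caput, 12.9 in corpus), Hydin (7.35 and 10.2) and Tekt4 (1.56 and 2.67). The part of the dissection in the spread between caput libraries was not tested. Without caput replicate 3 the 8 calls below caput in corpus were reduced by that of Sirpa.

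Of the genes placed around ROS1, 11 could be tested, and 5 were lower and 4 higher in corpus than in caput. Adam28, an ADAM metalloprotease-family gene of the initial segment, had 2390 ± 286 CPM in caput and fell to 0.908 ± 0.846 in corpus and 0.291 ± 0.0789 in cauda. Plcg1, a phospholipase recruited by activated receptors, fell from 216 ± 26.4 to 38.8 ± 1.81 and 34.1 ± 7.65 CPM (corpus against caput, log2 -2.47, SE 0.14, edgeR adjusted p = 4.38e-09). Irs1, an adaptor of the insulin receptor, rose from 7.53 ± 1.22 to 27.3 ± 2.39 and 23.4 ± 3.33 CPM, and Gm1673 rose from 4.01 ± 0.243 to 10.5 ± 2.61 and 13.1 ± 1.36. Nell2, the ROS1 ligand made in the testis, was too low to test, with 5 reads in total over the caput libraries, 7 over corpus and 1 over cauda. The median log2 change of the tested genes from caput to corpus was -0.23, and their counts stood beside 28.2% lower and 29.5% higher among all tested genes.

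Of 20 tested genes of the ERK cascade itself, 7 were lower and 6 higher in corpus than in caput. These shares were near those of all tested genes (28.2% lower and 29.5% higher). In cauda 8 were lower and 4 higher, beside 27.2% lower and 27.5% higher among all tested genes. The cascade had median log2 changes of -0.08 in corpus and -0.22 in cauda. Rps6ka3, an ERK-activated ribosomal S6 kinase, had 171 ± 17.1 CPM in caput and fell to 49.5 ± 9.04 in corpus and 43.2 ± 7.03 in cauda. Its relative Rps6ka2 instead rose from 25.7 ± 3.8 to 56.7 ± 13.5 CPM in corpus and fell back to 24 ± 1.44 in cauda. Araf, a RAF kinase, fell from 307 ± 7.28 to 146 ± 4.46 and 146 ± 1.67 CPM. Map2k1 (MEK1) rose from 57.7 ± 6.34 to 114 ± 3.91 CPM in corpus and stood at 74.4 ± 2.95 in cauda. Mapk3 (ERK1) had 69.7 ± 6.67 CPM in caput and 69.6 ± 9.58 in corpus and was lower in cauda, at 54.2 ± 2.88.

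Among 14 tested feedback and other ERK pathway inhibitors outside the list, 8 were lower and 2 higher in corpus than in caput. In cauda 8 were lower and 1 higher. The set included Rasa1 and Nf1, general inhibitors of RAS, which were both lower in corpus and in cauda. Of all tested genes, 28.2% were lower and 29.5% higher in corpus, and 27.2% were lower and 27.5% higher in cauda. The median log2 changes of the inhibitors were -0.89 and -0.51. Besides Spry1, the cytoplasmic ERK phosphatase gene Dusp7 fell from 40.5 ± 1.18 CPM to 14.9 ± 3.61 and 13.7 ± 2.63. Rasa1, a GTPase-activating protein that switches RAS off, fell from 159 ± 20.9 to 65.6 ± 4.42 and 60 ± 2.64 CPM. Dusp1, a stress-induced phosphatase, rose from a caput level of 17.9 ± 3.35 CPM to 65.3 ± 44.3 in corpus and 94.9 ± 31.3 in cauda. Of 13 tested ERK-responsive genes outside the list, 8 were lower and 4 higher in corpus and 5 lower and 4 higher in cauda. The same shares of all tested genes stand beside these counts. Egr2 fell from 573 ± 21.7 CPM to 41.5 ± 9.78 and 54.7 ± 11.9, and Phlda1 from 145 ± 16.2 to 36.4 ± 2.39 and 35.4 ± 3.01. Fos and Egr1, which like Egr2 are immediate early genes, rose, Fos from 34.6 ± 8.29 CPM to 380 ± 76.1 and 448 ± 204, and Egr1 from 109 ± 19.4 to 627 ± 146 and 637 ± 256. Textbook ERK targets therefore moved in both directions, with Egr2 and Phlda1 lower and Fos and Egr1 higher outside caput.

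**Figure D5:**
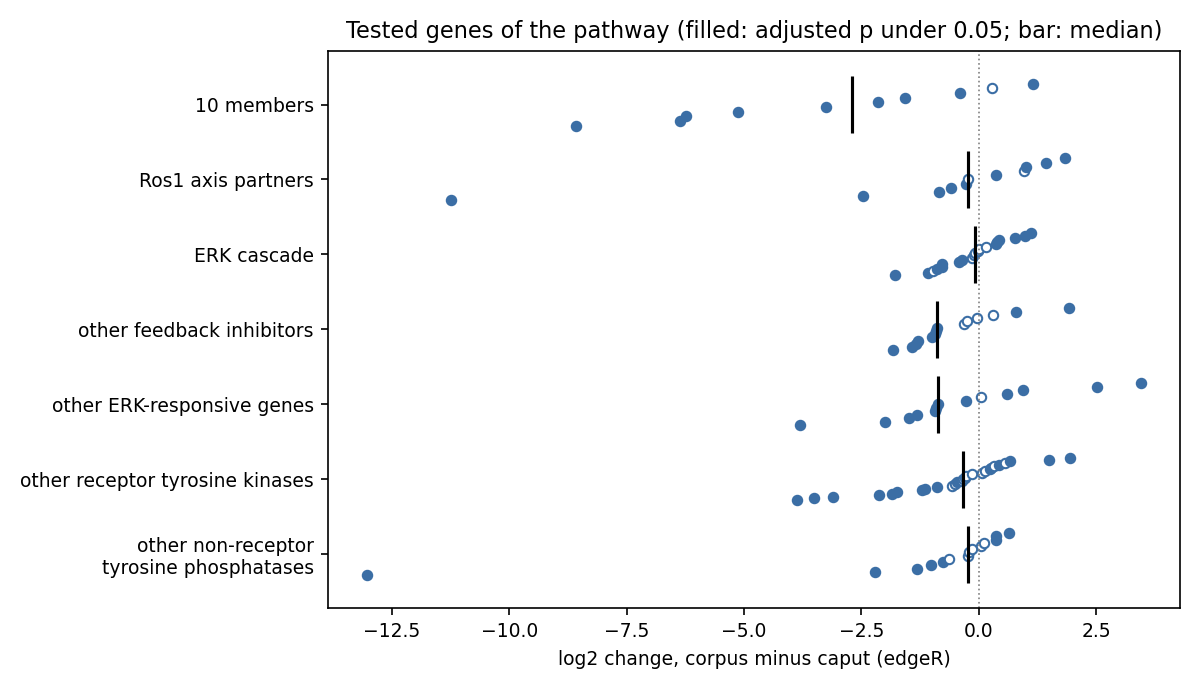
Log2 change from caput to corpus (x axis, edgeR) of every tested gene in 7 gene groups, filled where the adjusted p was under 0.05, with a bar at each median. The 10 genes have a median of -2.7, while the ERK cascade is centred at -0.08; the leftmost phosphatase, Ptpn5, had no count in corpus, so its fitted value depends on the prior count.

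Other receptor tyrosine kinases and phosphatases give the scale for Ros1 and Ptpn6. Of 27 tested kinases, 10 were lower and 5 higher in corpus than in caput (median log2 change -0.33). Of all tested genes, 28.2% were lower and 29.5% higher. Outside Ros1 the widest falls were those of Tyro3 (12.3 ± 4.62 CPM in caput, 0.862 ± 0.421 in corpus), Fgfr4 (6.7 ± 2.02 and 0.582 ± 0.189), Pdgfra (349 ± 25.2 and 40.3 ± 20.5) and Met (47 ± 10.8 and 11 ± 2.54). Alk and Ltk, kinases related to ROS1, were too low to test, at means of at most 0.375 CPM in any segment. Of 14 tested non-receptor tyrosine phosphatases, 5 were lower and 3 higher in corpus, beside the same shares of all tested genes. Ptpn5, a phosphatase known from neurons that acts on ERK, had 227 ± 12.5 CPM in caput, no count in corpus and 0.244 ± 0.214 CPM in cauda. Ptpn12 fell from 70.1 ± 3.03 to 15.4 ± 3.2 and 18.3 ± 2.56 CPM, Ptpn3 from 140 ± 14.6 to 83.6 ± 13.3 and 58.3 ± 5.61, and Ptpn4 fell from 5.6 ± 2.59 to 2.23 ± 0.385 CPM in corpus.

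Genes with the profile most like that of Ros1 were sought among 11221 genes with at least 10 CPM in some segment, by the root mean square difference in centred log2 CPM over the 9 libraries. The 5 nearest were Vip (difference 0.17), Col6a4 (0.17), Obp2a (0.18), 9230102K24Rik (0.21) and B4galnt2 (0.22). Mean CPM along the duct was 336, then 5.03, then 4.02 for Col6a4, a collagen VI chain, and 214, 3.9 and 2.4 for B4galnt2, a glycosyltransferase. Vip, a neuropeptide, and Obp2a, an odorant-binding lipocalin, had 30.7 and 31.5 CPM in caput and no count in either distal segment, where the prior count of 2 sets their log value. Of the 10 genes, Etv4 was nearest to Ros1 (0.45), then Etv5 (0.81) and Ovch2 (1.21). The 5 genes nearest to Ptpn6 were Eif2b2 (0.1), Map3k6 (0.11), Mpg (0.12), Bcdin3d (0.12) and Dcaf4 (0.13). Map3k6, a MAP kinase kinase kinase of the stress pathways, peaked in corpus at 86.6 CPM, from 38.9 in caput and 45.9 in cauda, and the translation factor subunit Eif2b2 had 52.7, 109 and 55.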

How the data were processed

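RNA was extracted with Trizol from flash frozen tissue, and stranded mRNA libraries were read as single ends on an Illumina GAIIx, per the labels' protocols. Per the submitters' processing notes, the tools were Bowtie2 2.2.0, FastQC 0.11.2 and CASAVA 1.8.2, with build mm10. The counting tool, annotation and strand setting were not given in the sources used here. Raw read counts and RPKM values per gene symbol were deposited by the authors, per the file headers. The RPKM values repeated in another sheet were 100% identical.

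Counts were fitted in R 4.3.3 with edgeR 4.0.16 (filterByExpr, TMM, quasi-likelihood, 1 mean per segment over 9 libraries, two-sided tests, threshold 0.05). Of 24059 symbols, 14168 were tested and p-values were Benjamini-Hochberg adjusted over all of them. Alternatives used DESeq2 1.42.0 and limma 3.58.1. The spread between libraries was 10.1% (biological coefficient of variation). CPM means carry the SD of 3 libraries. RPKM served for levels between genes.

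The members, gene lists and rules were chosen with earlier results of these data known. From each list up to 4 genes were named, those past the threshold against caput with the largest change and at least 5 CPM. Other list genes were named after their values were seen, namely Cd47, Ptpn11, Nell2, Mapk3, Alk and Ltk. Marker genes were also named by their values. Positions are from GENCODE M21, and RefSeq supplied the upstream sequences.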

Additional observations from a re-analysis of the deposited data

How the results depend on the processing

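Each result was recomputed under 19 alternatives, 9 of them leaving out 1 library. The number of the 10 genes past the threshold was 9 from caput to corpus (8 to 10 without 1 library), 6 from caput to cauda (6 to 7) and 3 from corpus to cauda (2 to 3). Of 570 log2 changes, 547 kept their direction and side of the threshold, 8 lost a call, 9 gained one and 6 changed sign. The sign changes all concerned differences that had not passed the test. Ovch2 between corpus and cauda (-0.21 in the main fit) became 0.16 without corpus replicate 2. Ptpn6 between caput and cauda (0.06) became -0.03 without caput replicate 1. Spry2 between caput and cauda (0.04) became -0.02 without caput replicate 2, -0.06 without cauda replicate 2 and -0.04 with either pseudocount on RPKM. The same differences kept their sign at the other end of their range. There they were -0.45 for Ovch2 (without cauda replicate 2), 0.19 for Ptpn6 (without caput replicate 2) and 0.17 for Spry2 (without cauda replicate 3). The cause of the sign changes was not tested. Calls lost were those of Sirpa between caput and corpus and of Etv1 between corpus and cauda, the latter also on log2(RPKM + 1) (limma adjusted p = 0.0604).

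On log2(RPKM + 0.1) the median of all genes lay 0.14 lower from caput to corpus than with TMM. Log2 changes of genes with low distal levels shrank most on log2(RPKM + 1), where that of Ros1 from caput to corpus was -4.23. That of Etv4 was -6.37 in the main fit, -6 on log2(RPKM + 0.1) and -4.29 on log2(RPKM + 1). Of 399 list counts, 19 moved by over 1.5 times, all between corpus and cauda: ROS1 partners from 2 to 1, ERK cascade from 6 to 3, ERK-responsive genes from 2 to 1 or 4, and receptor kinases from 8 to 5.

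Same-numbered libraries deviated together at r = -0.04 to 0.24 across genes. In 14 of 18 comparisons, each with 3 candidate libraries, a library correlated best with its own number. These values do not settle whether equal numbers are pairs, and the main fit ignored any pairing. A replicate block raised the genes called from 8173 to 8446 (caput to corpus), 7745 to 8089 (caput to cauda) and 5552 to 5946 (corpus to cauda). With the replicate block the member counts were 9, 6 and 3, and the ERK-responsive count from corpus to cauda went from 2 to 4. Depth limits the low distal values, which rest on 18 reads for Etv4 in corpus and 47 each for Spry4 and Ovch2 there.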
